A study of Caenorhabditis elegans with 3 samples.

Results

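Among the promoter peaks of the transcription factor ELT-3 in Caenorhabditis elegans larvae, 230 held a GATA site. They were taken from the 1202 peaks of the authors' list thresholded by the irreproducible discovery rate (IDR), a measure of agreement between peak lists. Being on this list did not mean recovery in both replicates, since 21 of the 230 overlapped any peak of biological replicate 2. A peak was a member when its summit was at most 1000 bp before or 200 bp after the annotated 5′ end of a protein-coding gene, and when at least 1 site lay wholly within 100 bp of the summit. A site was the letters GATA preceded by A or T and followed by A or G, as in TGATAA, on either strand. The promoter rule alone kept 530 peaks, of which 230 held a site (43.4%, exact 95% Clopper-Pearson interval 39.1 to 47.7%) and 300 did not. The members were thus 19.1% of the IDR list, and 268 protein-coding genes had a member in their promoter window. The rule used the positions of the summits and the genome sequence, and no signal value.

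The study measured, by chromatin immunoprecipitation and sequencing, where a GFP-FLAG-tagged ELT-3 sits on the genome in whole L1 larvae, the first larval stage. All 3 libraries came from strain OP75, genotype unc-119(ed3) III; wgIs75, which carries the tagged elt-3 as a stable transgene. Animals were of mixed sex and their exact age is given as unknown. There was 1 group, with 1 library of biological replicate 1 and 2 technical libraries of biological replicate 2, so no condition could be compared, and the tests below compare classes of peaks. Whole worms were used, so a peak cannot be assigned to a tissue, and the cells that carry the transgene's product are not given in the labels.

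GATA factors are zinc-finger proteins named for the core of the sequence they bind, and most recognise that core with an A or T before it and an A or G after it. In C. elegans, different members of the family act in the gut lineage and in the epidermis, and ELT-3 is known as an epidermal factor. Many worm genes are trans-spliced or lie in operons, so an annotated 5′ end can be some distance from where transcription begins.

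The summit windows of 8 members are shown first, because they hold more than 1 site, the feature by which these peaks differed from other promoters. Each is a summit with the 100 bases on either side, 5′ to 3′ on the forward strand of WBcel235 (ce11), from RefSeq, with the sites in capitals; a site on the reverse strand appears with TATC in place of GATA. The windows are F16G10.14 at chrII:2399855-2400055, C52E2.3 at chrII:1850950-1851150, R10D12.1 at chrV:13935540-13935740, F43H9.4 at chrV:8026439-8026639, H10E21.1 at chrIII:15352-15552, nhr-119 at chrII:2800890-2801090, oatr-1 at chrIII:6396560-6396760 and dpyd-1 at chrX:5467446-5467646. The gene named is the one with the nearest protein-coding 5′ end.
F16G10.14: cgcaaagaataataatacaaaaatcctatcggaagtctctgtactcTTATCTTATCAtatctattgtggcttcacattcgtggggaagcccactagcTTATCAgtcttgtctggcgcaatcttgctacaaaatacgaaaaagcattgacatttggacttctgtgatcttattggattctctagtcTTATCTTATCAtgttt
C52E2.3: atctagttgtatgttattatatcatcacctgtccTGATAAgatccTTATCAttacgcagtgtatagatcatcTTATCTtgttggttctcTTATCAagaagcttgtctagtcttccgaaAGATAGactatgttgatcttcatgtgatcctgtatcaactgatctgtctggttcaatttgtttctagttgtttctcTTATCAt
R10D12.1: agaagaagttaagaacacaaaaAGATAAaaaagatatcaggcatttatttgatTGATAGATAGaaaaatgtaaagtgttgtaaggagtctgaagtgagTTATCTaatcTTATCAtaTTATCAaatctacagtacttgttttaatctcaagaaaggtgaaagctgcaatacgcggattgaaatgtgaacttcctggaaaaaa
F43H9.4: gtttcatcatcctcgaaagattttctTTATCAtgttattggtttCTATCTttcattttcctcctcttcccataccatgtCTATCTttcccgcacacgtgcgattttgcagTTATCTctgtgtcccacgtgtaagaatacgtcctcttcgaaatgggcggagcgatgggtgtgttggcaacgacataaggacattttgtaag
H10E21.1: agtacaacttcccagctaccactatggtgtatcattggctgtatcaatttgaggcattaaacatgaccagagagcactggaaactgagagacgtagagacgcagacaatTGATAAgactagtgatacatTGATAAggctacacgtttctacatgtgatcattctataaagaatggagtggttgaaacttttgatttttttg
nhr-119: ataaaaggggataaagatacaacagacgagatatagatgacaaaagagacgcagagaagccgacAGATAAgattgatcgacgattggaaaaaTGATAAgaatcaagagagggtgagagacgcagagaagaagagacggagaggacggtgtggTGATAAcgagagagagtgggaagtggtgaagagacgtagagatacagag
oatr-1: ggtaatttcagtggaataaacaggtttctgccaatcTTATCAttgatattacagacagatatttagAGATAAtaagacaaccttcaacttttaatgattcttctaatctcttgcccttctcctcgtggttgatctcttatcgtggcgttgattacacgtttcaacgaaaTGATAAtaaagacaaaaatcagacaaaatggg
dpyd-1: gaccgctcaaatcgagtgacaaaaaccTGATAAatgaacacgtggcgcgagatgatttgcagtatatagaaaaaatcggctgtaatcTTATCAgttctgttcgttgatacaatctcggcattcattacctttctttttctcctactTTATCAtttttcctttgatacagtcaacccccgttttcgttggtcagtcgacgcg

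Shorter stretches of 30 bases show the site nearest to the summit in 10 other members, each written 5′ to 3′ on the strand that reads the site as GATA, with sites on that strand in capitals. They show overlapping pairs (nlp-31, dpy-31), a pair separated by a couple of bases (rhy-1), single sites and each form of the site. They lie at chrV:3979998-3980027 (forward strand) for nlp-31, chrII:9160331-9160360 (reverse strand) for rhy-1, chrV:16100298-16100327 (reverse strand) for cth-1, chrIII:7201639-7201668 (reverse strand) for dpy-31, chrII:11611581-11611610 (forward strand) for F07A11.5, chrV:11078454-11078483 (forward strand) for act-2, chrX:5841376-5841405 (reverse strand) for puf-9, chrV:11573053-11573082 (reverse strand) for H12C20.7, chrX:2891506-2891535 (reverse strand) for B0410.3 and chrV:9633514-9633543 (forward strand) for col-147.
nlp-31: ccgcgtcTGATAAGATAGtgtgttggagtg
rhy-1: actagaaggcgaTGATAAgaAGATAGgatg
cth-1: gtgtgtgtgaagAGATAAgatttgagacga
dpy-31: ttccacttttgtAGATAGATAGatcaagca
F07A11.5: aaaaagaaatcaAGATAAgccgatgaaaat
act-2: gaagtcggtaaaAGATAAaaattcgatacg
puf-9: aaatgcgtcattTGATAAgtttcgatgatg
H12C20.7: aaaacggagagaTGATAAtcagtgtccaca
B0410.3: taccaccctttcTGATAGtgtgtgtgtgtg
col-147: caataccaatagTGATAGaactatattcaa

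The first question was how far these peaks stood out in strength, measured by the authors' signal value per peak, whose scale is not stated and which was compared only within a list. Member signals ran from 35.8 to 158.5 with a median of 47.1, and those of the 300 promoter peaks without a site from 35.5 to 276.4 with a median of 49.0. The range of the members lay inside that of the others. Above the median of all promoter peaks lay 108 of 230 members (46.96%) and 157 of 300 peaks without a site (52.3%), a difference that did not pass the threshold of 0.05 (two-sided Fisher's exact test, p = 0.255). With sites sought within 150 bp the shares were 45.55% and 55.46%, which did (Fisher's exact test, p = 0.0289). The top of the list was held mostly by peaks without a site, since members were 1 of the 10 strongest and 12 of the 50 strongest promoter peaks. The −log10 q-value had its ceiling of 3.32 as its median among members, so it ranked them poorly.

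**Figure D1:**
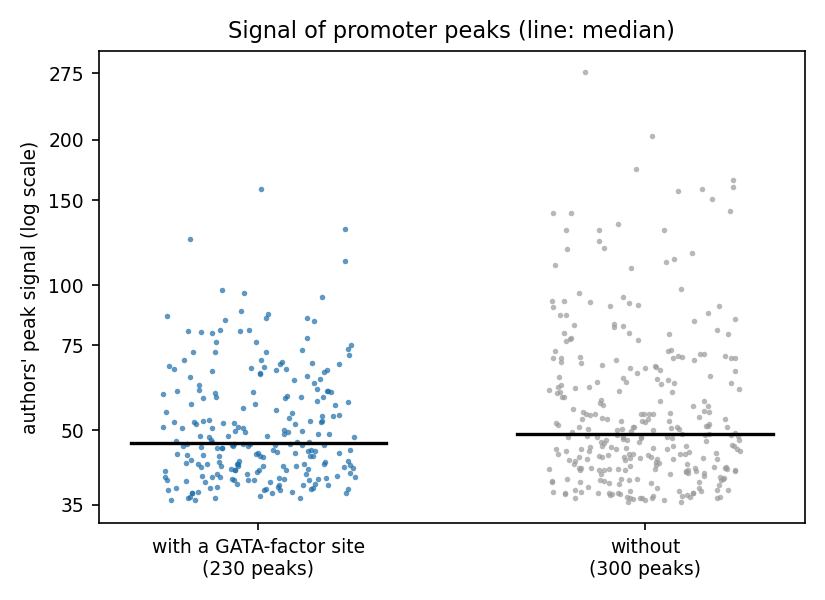
Authors' signal (log axis) of each promoter peak of the IDR list, by whether a GATA-factor site lay within 100 bp of the summit; each point is 1 peak and the line is the median. The medians are 47.1 with a site and 49.0 without, and the highest points are peaks without a site.

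The strongest member lay at −90 bp of his-37, a histone H4 gene, with a signal of 158.5 in the IDR list and 155.2 in the list of replicate 1. It was followed by puf-9, which encodes a Pumilio-family RNA-binding repressor (130.7), and by wdr-23, the adaptor through which a cullin ubiquitin ligase turns over the stress factor SKN-1 (124.9). Each of these 3 windows held 1 site, 80.5 or 81.5 bp from the summit. The signals of all 3 in replicate 1 lay close to those in the IDR list, and no replicate 2 peak overlapped any of them. The IDR signal is that of the pooled list, which includes replicate 1, so its closeness to replicate 1 is no separate support.

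The next members included genes of metabolism and its regulators. The peak at −320 bp of H10E21.1 also lay in the window of nhr-80, a nuclear receptor known for its control of fatty acid desaturation, and had a signal of 112.1 and 2 TGATAA sites 20 bp apart. The peak shared by H12C20.7 and nhr-68, a nuclear receptor of the propionate breakdown response, had a signal of 87.3. Signals of 84.6 at dhp-1, a dihydropyrimidinase of pyrimidine breakdown, 84.2 at cyp-29A4, a cytochrome P450, 80.4 at oatr-1, an ornithine aminotransferase, and 80.01 at gana-1, an alpha-galactosidase of the lysosome, followed. The gana-1 summit lay in an exon of another gene, R07B7.10. The oatr-1 window held 3 sites, and those of dhp-1 and gana-1 held 4 each, so many-site windows occurred among the strong members too.

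The other members among the 20 strongest were of several kinds. Structural and housekeeping genes were rpl-1 in a window shared with Y71F9AL.9 (97.7), the alpha-tubulin gene tba-2 (86.4), the actin gene act-2 (79.6), and the histone genes his-67 and his-68, whose peak also lay in the window of the Argonaute gene alg-5 (80.6). The peak at −30 bp of nlp-31 also lay in the window of nlp-34 (94.3), both genes of antimicrobial peptides made in the epidermis. RefSeq describes B0410.3 (96.5) as neuropeptide-like, F26A3.4 (85.5) as a protein-tyrosine phosphatase and ifbp-1, whose peak was shared with the cathepsin gene cpz-2 (80.5), as a zinc finger protein. F16G10.14 (88.3), K12H4.5 (85.4) and the nuclear receptor gene nhr-119 (80.8) complete the 20.

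**Figure D2:**
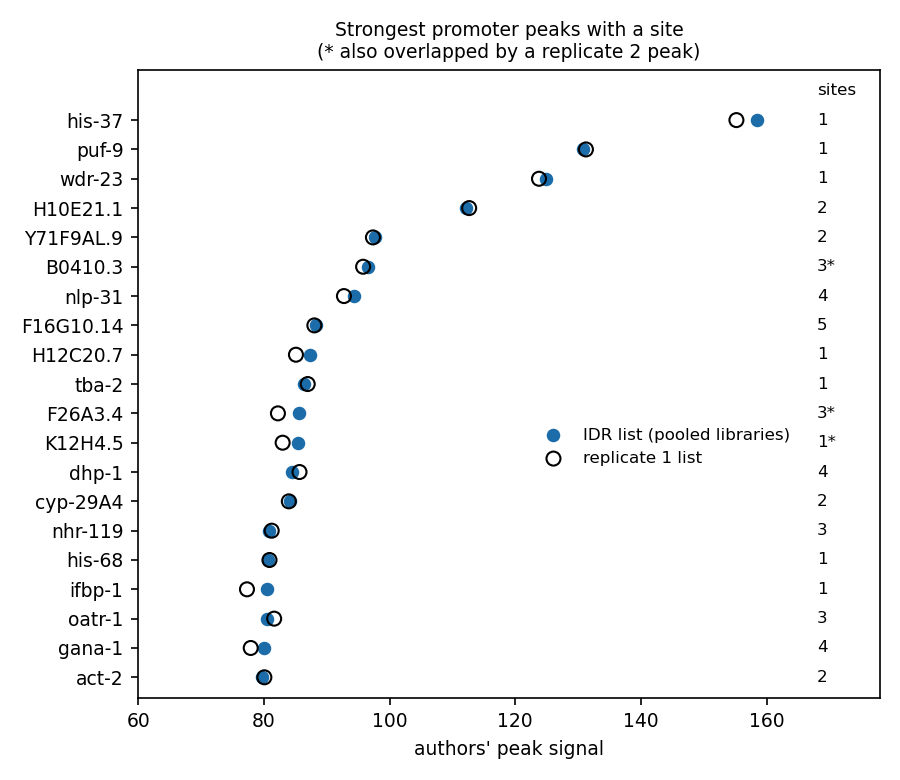
Authors' signal of the 20 strongest promoter peaks with a site, in the IDR list (filled) and in the list of replicate 1 (open); the column at right gives the number of sites per window, and an asterisk marks a peak overlapped by a replicate 2 peak. Both signals nearly coincide at each gene, from act-2 at 79.6 to his-37 at 158.5 in the IDR list, and 3 of the 20 carry an asterisk. The IDR signal is that of the pooled libraries, which include replicate 1.

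The replicates did not contribute equally. All 230 members overlapped a peak of replicate 1, 225 of them one of its 1202 strongest. All 300 promoter peaks without a site did so too, 291 of them with one of those 1202. For members, the ratio of the replicate 1 signal to the IDR signal ran from 0.879 to 1.10 with a median of 0.996. The IDR signal of all 230 members equalled that of the pooled list, which includes replicate 1, so the ratio compares a part with the whole. Only 21 of 230 overlapped any peak of replicate 2 (9.13%, exact 95% interval 5.74 to 13.6%), against 29 of 300 promoter peaks without a site (9.67%; two-sided Fisher's exact test, p = 0.882) and 9.43% of all 530. Holding a site therefore went with no detected difference in recovery by replicate 2. Each call described below is for this reason given also for the 1202 strongest peaks of replicate 2 taken in place of the IDR list, of which 128 were promoter peaks with a site and 175 promoter peaks without.

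The members that replicate 2 overlapped had signals there from 2.07 to 8.62 with a median of 2.88, near the 2.65 of its 4055 nuclear peaks. The highest, 8.62 and rank 6 in replicate 2, was the peak at −270 bp of F01G4.6, a mitochondrial phosphate carrier gene, in a window shared with the prefoldin gene pfd-1; its IDR signal was 76.1. B0410.3 had 4.61. The overlapped members named here were those with the highest IDR signals, not the highest signals in replicate 2. The overlapped members also included K12H4.5 (3.42), ZK858.6 (3.13), dpyd-1 (2.76), crml-1 (2.74), ints-4 of the Integrator complex (2.13) and rpl-7A in a window shared with set-21 (2.07). F26A3.4 was overlapped at both of its members, at −97 bp (2.37) and at −939 bp (3.87). Of the 21, 13 held 2 or more sites, beside 122 of all 230 members (53.0%).

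The number of sites was the clearest feature of the member windows beyond the rule. The 230 windows held 431 sites: 108 had 1, 68 had 2, 36 had 3, 14 had 4, 1 had 5 and 3 had 6. As background, windows of the same width were centred 150 bp upstream of the 5′ ends of genes without an IDR promoter peak; 41.1% of these 19277 windows held a site. A single site is thus common in worm promoters, but a second was more frequent in members: 122 of 230 (53.0%, exact 95% interval 46.4 to 59.6%) had 2 or more, against 2429 of 7927 background windows with at least 1 (30.6%; odds ratio 2.56, two-sided Fisher's exact test, p = 4.83e-12). In 54 members there were 3 or more. These tests take peaks as units and say nothing of variation between worm cultures. Among replicate 2's strongest peaks the excess was not found, with 30.5% of its members against 30.7% of background windows (two-sided Fisher's exact test, p = 1.0).

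**Figure D3:**
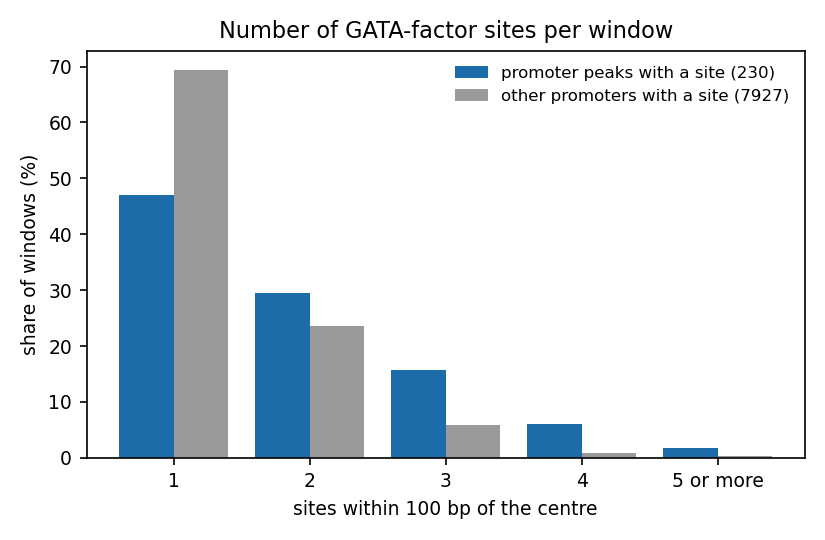
Share of windows (%) by number of GATA-factor sites within 100 bp of the centre, for the 230 promoter peaks with a site and the 7927 background promoter windows with at least 1; bars start at 0. One site is found in 46.96% of members and 69.4% of background windows, and the members exceed the background at 2, 3, 4 and 5 or more sites.

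Base composition moved the other way. The median A+T share was 60.2% in member windows, 55.2% in promoter peaks without a site and 66.7% in background windows, so members had more sites in sequence less rich in A and T. Restricted to windows between the lower and upper quartiles of the members in A+T share, a second site was present in 54.9% of members and 29.95% of background windows. The share of windows with any site was 44.8% of the 268 promoter peaks between their own A+T quartiles, 52.7 and 61.7%, against 36.0% of 4227 background windows in the same range, where without that restriction it was 43.4% against 41.1%. The part of base composition in the second-site result was not tested beyond this.

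The windows with most sites were at genes of different kinds. R04B5.5, a sorbitol dehydrogenase gene, C52E2.3 with the F-box gene fbxb-96, and R10D12.1, a predicted transporter of the major facilitator family, had 6 each, with signals of 68.7, 50.8 and 41.3. The R04B5.5 summit lay in an exon of another gene, R04B5.6. F16G10.14, with 5, held 2 overlapping pairs, visible above as TTATCTTATCA. Windows with 4 included nlp-31, dhp-1, gana-1, F43H9.4, annotated as a glycine N-acyltransferase-like gene, hgo-1, the homogentisate dioxygenase of tyrosine breakdown, and F07A11.5, a predicted ribokinase gene. Median signals were 46.5 with 1 site, 48.8 with 2, 47.8 with 3 and 51.5 with 4 or more, given without a test.

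Sites also lay close to each other. Among the 122 members with several sites, the smallest distance between site centres had a median of 21 bp, against 39 bp in the 2429 background windows with several sites, and it was at most 20 bp in 60 members (49.2%) and 756 background windows (31.1%). It was at most 5 bp, so that neighbouring sites overlapped, in 17 members (13.9%) and 118 background windows (4.86%). Windows with more sites have smaller gaps by construction, and these distances are given as a description without a test.

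Position relative to the summit was examined in the 108 members with exactly 1 site, where no choice among sites arises. The site centre lay within 50 bp of the summit in 47 (43.5%, exact 95% interval 34 to 53.4%), against the 51.0% of possible positions that lie there (two-sided exact binomial test, p = 0.124). No concentration of single sites at the summit was detected. With sites sought within 150 bp, 36.9% lay in the nearer part of the window against 50.7% of positions (exact binomial test, p = 0.00268), and with sites ending in A only 39.6% against 51.0% (exact binomial test, p = 0.0354), so single sites were then farther from the summit than an even spread gives. In members with 2 or more sites, 198 of 323 sites (61.3%) lay within 50 bp, and in those with 3 or more, 121 of 187 (64.7%), values given without a test. Over all members the nearest site had a median distance of 31.5 bp, and it was within 10 bp of the summit in 33 members, within 25 bp in 95 and within 50 bp in 151.

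**Figure D4:**
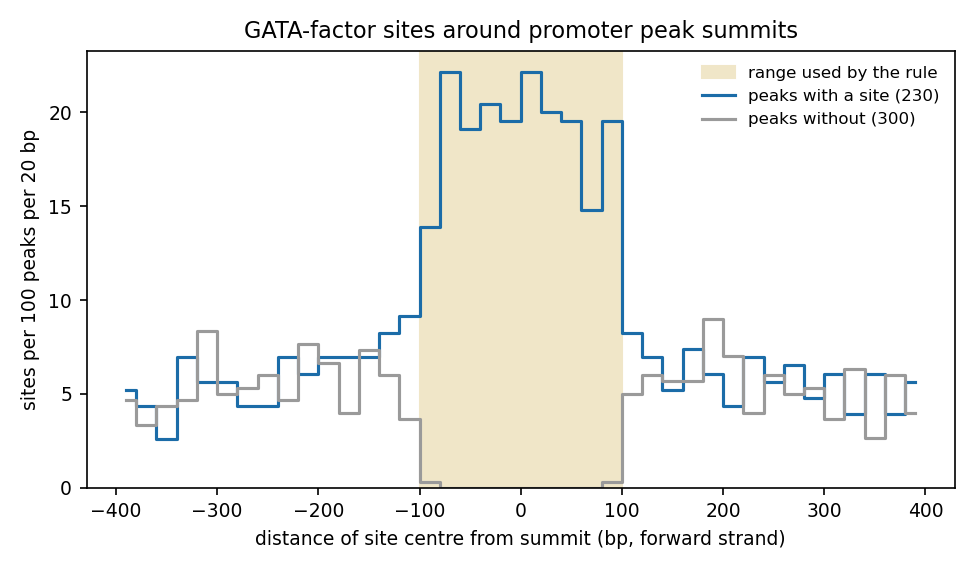
GATA-factor sites per 100 promoter peaks in bins of 20 bp against the distance of the site centre from the summit (bp, forward strand), for 230 peaks with a site and 300 without; shading marks the range used by the rule, within which the difference is set by the choice of members. Farther out, at 200 to 400 bp, the lines run at the same height, 10.6 sites per 100 members and 10.4 per 100 peaks without a site for each 40 bp of sequence. Just outside the range, at 100 to 120 bp before and after the summit, members had 9.13 and 8.26 sites per 100. Peaks without a site had 3.67 and 5.0 there.

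By the position of their centres, there were from 41.7 sites per 100 members within 20 bp of the summit to 33.5 at 80 to 100 bp, the latter with 9 sites that reached past the window and are not among the 431. At 200 to 400 bp the density was 10.6 per 100 members for the same 40 bp of sequence, and 10.4 in peaks without a site. The 100 bp limit cut through a continuous range: just inside were C07B5.8 and C07A4.2 with a site centre at 97.5 bp (signals 42.1 and 39.5) and tba-2 at 96.5 bp, and just outside were fbp-1 at 98.5 bp (42.3), the ubiquitin ligase gene wwp-1 at 99.5 bp (133.6) and the Rheb GTPase gene rheb-1 at 100.5 bp (49.3), whose sites did not lie wholly in the window.

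The form of the site did not differ detectably for the commonest one. TGATAA made up 202 of the 431 sites (46.9%), against 47.2% of the sites in background windows (two-sided Fisher's exact test, p = 0.922). The other forms, given without a test, were AGATAA with 90 sites (20.9% against 28.1%), AGATAG with 85 (19.7% against 11.3%) and TGATAG with 54 (12.5% against 13.5%). Of the 431 sites, 175 (40.6%) were on the strand of the nearest gene.

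The base that follows the site was tallied too. TGATAA was followed by G at 92 of 202 sites in members (45.5%, exact 95% interval 38.5 to 52.7%) and at 1351 of 5205 in background windows (26.0%, 24.8 to 27.2%). AGATAA was followed by G at 38 of 90 sites (42.2%, 31.9 to 53.1%) and at 605 of 3100 (19.5%, 18.1 to 21.0%). This comparison was chosen after the flanking bases had been seen and has no test. Its dependence on the A+T share, which was lower in member than in background windows, was not tested either. In overlapping pairs the G is part of the next site; without such sites the shares were 41.8% of 189 against 25.4% of 5165 for TGATAA, and 40.9% of 88 against 19.1% of 3083 for AGATAA. Both sites of H10E21.1, and the first site of the overlapping pair in nlp-31, read TGATAAG, while the site of H12C20.7 reads TGATAAT. Among replicate 2's strongest peaks, G followed 19.75% of 81 TGATAA sites.

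Of 10 companion sequences searched on both strands, CAGCTG, an E-box of the type bound by myogenic factors, differed between the classes. It was present in 4 of 230 member windows (1.74%), 27 of 300 windows without a GATA site (9.0%) and 3.64% of background windows (members against peaks without a site, adjusted p = 0.00281 by Fisher's exact test, two-sided, with Benjamini-Hochberg adjustment over 10 sequences). The call depended on the limit of 100 bp, which also set the stretch searched for CAGCTG. With both GATA sites and CAGCTG sought within 50 bp, the shares were 0.667% and 5.79% (adjusted p = 0.0761, Fisher's exact test). With both sought within 150 bp, they were 4.80% and 9.66% (adjusted p = 0.129, Fisher's exact test). In replicate 2's strongest peaks it was present in 7.03% of members and 2.86% of the others (adjusted p = 0.416, Fisher's exact test).

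The other 9 companion sequences did not pass the threshold of 0.05. GAGAG was in 57.4% of members and 54.3% of peaks without a site, both above the 28.3% of background windows, and the E-box CACGTG was in 13.9%, 9.0% and 3.88% (adjusted p = 0.235 between the peak classes, Fisher's exact test). AGGTCA, the core sequence bound by nuclear receptors, was in 10.4%, 6.0% and 5.98%. The trans-splice acceptor sequence TTTCAG was in 11.3% of members and 15.3% of peaks without a site, both below the 28.5% of background windows, and the homeodomain site TAATTA in 4.35% and 4.33%, below 11.7%. For members, peaks without a site and background windows in turn, ATCGAT was in 4.35%, 8.33% and 7.82%, CCAAT in 33.04%, 28% and 32.78%, the AP-1 site TGANTCA in 8.70%, 5.33% and 7.34%, and the forkhead site GTAAACA in 3.48%, 2.33% and 3.71%. The comparisons with background windows have no test. Median A+T shares were 60.2%, 55.2% and 66.7% in the same order of windows. The part of base composition in these shares, and in that of CAGCTG, was not tested. These shares describe letters in these windows, not binding.

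Member summits lay a median of 215.5 bp from the nearest protein-coding 5′ end, against 225.5 bp for peaks without a site, and 113 of 230 (49.1%) and 152 of 300 (50.7%) were beyond the common median of 223.5 bp (two-sided Fisher's exact test, p = 0.793). With promoter windows of 2000 bp the direction turned and the difference was called, 57.3% of members against 42.9% lying beyond the common median (Fisher's exact test, p = 0.00023). Within the 1000 bp window, 154 members (67.0%) lay within 500 bp upstream against 244 of the others (81.3%), and 54 (23.5%) lay farther upstream against 43 (14.3%). By annotation, 187 member summits (81.3%) fell between genes, 19 in introns, 16 in 5′ untranslated regions and 8 in other exon sequence. Some of the exon summits lay in a gene other than the one named. Those of cdo-1, gana-1, R04B5.5 and vha-13 lay in exons of lgl-1, R07B7.10, R04B5.6 and cept-2 in turn. Remote members included rhy-1, an acyltransferase-like regulator of the hypoxia factor HIF-1, at −1000 bp with a signal of 69.0, and cdo-1, cysteine dioxygenase, at −978 bp with 67.3. Both had 3 sites, as did the peak at −378 bp of cth-1, a cystathionine gamma-lyase gene (44.3); these 3 genes were named after their values had been seen.

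Members were less often in promoters shared by neighbouring genes. A summit lay in the promoter windows of 2 or more protein-coding genes in 40 of 230 members (17.4%) and 113 of 300 peaks without a site (37.7%; odds ratio 0.348, two-sided Fisher's exact test, p = 2.56e-07). Among summits within 500 bp upstream of the nearest 5′ end the shares were 23.4% and 42.6%, so the difference was present there too. Replicate 2's strongest peaks showed no such difference, with 17.2% and 10.9% (Fisher's exact test, p = 0.127). Few genes had several promoter peaks, and 4 genes had 2 members, among them F26A3.4 and dpyd-1. No gene had both a member and a promoter peak without a site, which says little with so few such genes. The dpyd-1 gene, whose product begins pyrimidine breakdown, had members at −324 bp (52.9) and at 191 bp downstream in an intron (58.7), each with 3 sites.

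By chromosome, members were most numerous on V, with 51 of 230 (22.2%) against 38 of 300 peaks without a site (12.7%, two-sided Fisher's exact test, adjusted p = 0.0285 over 6 chromosomes). The share of all protein-coding genes on each chromosome is not set beside these counts. They compare the classes of peaks and show no excess of members on V over its genes. Chromosome III held fewer members, 31 (13.5%) against 64 (21.3%), but did not pass the threshold (adjusted p = 0.0665, Fisher's exact test), and X held 43 (18.7%) against 53 (17.7%) (adjusted p = 0.820, Fisher's exact test). The call for V was lost in the 1202 strongest peaks of replicate 1 alone (21.2% against 13.5%, adjusted p = 0.0768, Fisher's exact test) and in those of replicate 2 (23.4% in both classes). It was also lost with sites within 50 bp (21.3% against 15%, adjusted p = 0.305), with a promoter window of 500 bp (22.9% against 13.4%, adjusted p = 0.0897) and with sites ending in A only (23.1% against 13.9%, adjusted p = 0.0735), all by Fisher's exact test.

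The members were set against 31 gene lists, beside the 1.34% of all 19973 protein-coding genes with a member in the promoter window. Cytosolic ribosomal proteins had 8 of 83 genes with a member, among them rpl-1 (97.7), rps-15 (72.7), and rpl-24.1 and rps-10, which share a window (65.5). The member at rpl-7A (52.0) was overlapped by replicate 2. Among genes with any promoter peak, with or without a site, 8 of 45 in this list had a member, against 268 of 688 over all genes. Most ribosomal protein genes with a promoter peak thus had one without a site. The same counts were 2 of 11 for heat shock proteins, 5 of 7 for cuticle collagens and 7 of 10 for nuclear hormone receptors. Of the epidermal lists, cuticle collagens had 5 of 175, col-62 with a signal of 66.5, col-147 with 59.7, the pair col-159 and col-160 with 50.6 and col-144 with 44.5. Epidermal antimicrobial peptides had 3 of 57, nlp-31 and nlp-34 (94.3) and nlp-24 (48.6). Collagen processing had 1 of 14, dpy-31, an astacin protease gene, whose signal of 37.7 was near the lower end of the members, and the hedgehog-related list had grl-11 (41.3), 1 of 84.

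Among regulators, nuclear hormone receptors had 7 of 274, led by nhr-80 (112.1), nhr-68 (87.3), nhr-119 (80.8) and nhr-35 (60.1). Sma/Mab body size genes had 2 of 19, sma-10, a transmembrane regulator of BMP-type signalling (46.4), and mab-21 (45.9). Insulin and stress regulators had 2 of 63, wdr-23 (124.9) and the kinase gene akt-2 (60.2). The osmotic stress list had osm-11, which encodes a secreted Notch co-ligand (45.4), 1 of 24, and homeobox genes had ceh-38 (39.8), 1 of 88.

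The other lists with a member were mostly of enzymes and cell maintenance genes. Genes in none of the lists were not classified. Detoxification genes had 7 of 188, with cyp-29A4 (84.2), gst-42, a maleylacetoacetate isomerase of tyrosine breakdown (68.0), gst-20 (62.5) and ugt-19 (51.7) highest. The proton pump of acid compartments, the vacuolar ATPase, had 2 of 22, vha-8 (72.7) and vha-13 (67.0). The vha-13 summit lay in an exon of another gene, cept-2. Histones had 3 of 81 and heat shock proteins 2 of 61, dnj-13 (70.0) and the constitutive chaperone gene hsp-1 (57.3). Translation factors and tRNA synthetases had 1 of 65 (eif-3.B, 46.9), mitochondrial ribosomal proteins 1 of 66 (mrpl-15, 38.0) and vesicle traffic genes 1 of 108 (vps-60, 58.2). Chemoreceptors had 4 of 1311, with srh-17 (58.5) highest, and F-box genes 4 of 327, with fbxl-2 (74.96) highest.

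The remaining 12 lists had no gene with a member. They were molting and apical matrix genes (53), epidermal transcription factors (24), GATA factors (12), intestine (28), body wall muscle (20), pharynx (86), neurons (27), germline (68), C-type lectins (240), proteasome (33), Wnt pathway (29) and heterochronic timing (19). With 1.34% of all genes called, a list of 80 genes would hold about 1, so the zeros of the shorter lists give no direction. The lists are read only as counts beside that share, and no test was made of them.

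**Figure D5:**
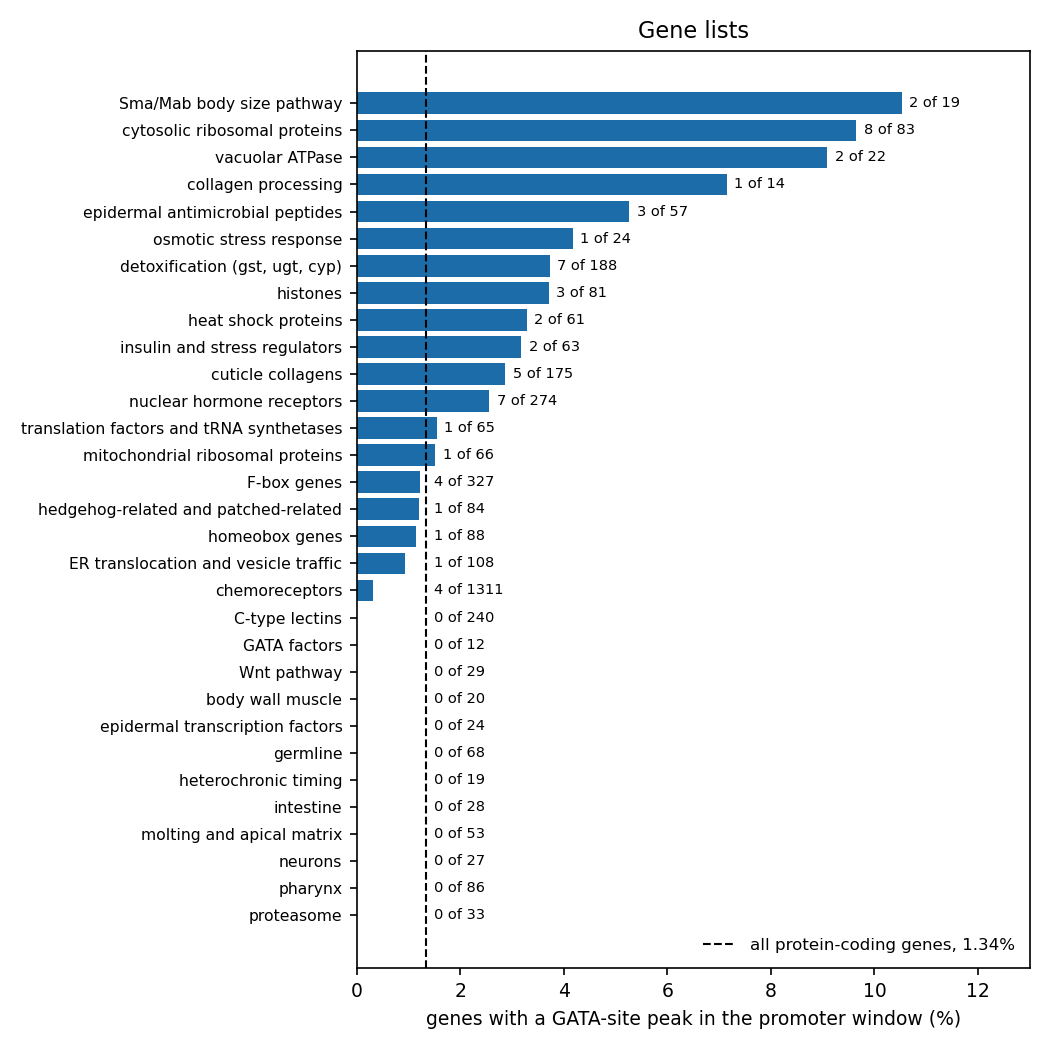
Share of genes (%) with a GATA-site peak in the promoter window in each of 31 gene lists, with the number of genes as called of listed; the dashed line is the 1.34% of all protein-coding genes. Sma/Mab genes, cytosolic ribosomal proteins and the vacuolar ATPase have the longest bars, from 2, 8 and 2 genes. Promoter peaks with or without a site lay at 2, 45 and 5 genes of these lists.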

How the data were processed

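The authors deposited peak lists of 3 ChIP-seq libraries in 1 group, in the narrowPeak layout on build ce11 (WBcel235): 1 list per biological replicate, 1 for the pooled alignments and the IDR list derived from them, per the deposited records. The technical libraries of replicate 2 share 1 list and count as 1 replicate. The deposited values per peak are a signal value and a −log10 q-value. Peak caller and aligner: not given in the sources used here. A control experiment named in the labels was not analysed here, and without read counts depth is unknown. Intervals cover the counting of peaks or sites only. The test on the form of the site and the intervals for the base after it count sites, several of which can come from 1 window.

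Summits were assigned to protein-coding 5′ ends of Ensembl release 115, and sites were searched in the RefSeq sequence of WBcel235. Coordinates are 1-based. Peaks overlapped when they shared at least 1 bp. Background windows lay 150 bp upstream of 19277 distinct 5′ ends. Above-median counts and shares were compared by two-sided Fisher's exact tests and single-site positions by an exact binomial test (SciPy 1.17.1, pandas 2.3.3, numpy 2.4.6), adjusted by Benjamini-Hochberg over 6 chromosomes and 10 sequences, with a threshold of 0.05. Site search, assignment and tests were checked on simulated data.

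Genes named are the 20 strongest members, up to 4 per gene list, up to 10 overlapped by replicate 2, the 10 with most sites and 3 peaks on each side of the 100 bp limit; rhy-1, cdo-1, cth-1 and col-144 were added after their values were seen. Gene lists match gene symbols, and the patterns for ribosomal proteins, F-box genes, chemoreceptors and vesicle traffic were corrected after their matches had been seen. Members and lists were chosen with earlier results of these data known. Alternatives covered site distance, promoter window, site form, signal, each replicate alone, ribosomal protein promoters, overlap rule and background position.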

Additional observations from a re-analysis of the deposited data

How the results depend on the processing

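Of 106 alternatives, 72 were labelled the same as the main result. For differences this meant the same direction and side of the threshold. For companion sequences it meant the same number called, and for G after TGATAA a share inside the main interval. Values below are differences in percentage points, members minus the comparison class; the cause was not tested. With either replicate's strongest peaks alone, the second-site difference ran from −0.267 to 22.6, shared promoters from −20.7 to 6.33, single-site position from −8.43 to 6.28, chromosome V from 0.00893 to 7.70 and CAGCTG from −7.39 to 4.17; the number of companion sequences called ran from 0 to 1, and G after TGATAA from 19.75% to 45.5%. The replicate 2 overlap was 0.307 with replicate 1's peaks, and has no value with replicate 2's own.

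With sites within 50 bp, replicate 2 overlap was 1.72, summit distance 0.0, chromosome V 6.33 (adjusted p = 0.305, Fisher's exact test) and CAGCTG −5.12 (adjusted p = 0.0761, Fisher's exact test), with 0 companion sequences called. With sites within 150 bp, signal was −9.91 (p = 0.0289, Fisher's exact test), single-site position −13.8 (p = 0.00268, exact binomial test), TGATAA 0.302, summit distance 0.0 and CAGCTG −4.87 (adjusted p = 0.129, Fisher's exact test), again with 0 sequences called. Companion sequences, CAGCTG among them, were sought within the same 50 or 150 bp of the summit as the sites. With a promoter window of 500 bp, chromosome V was 9.52 (adjusted p = 0.0897, Fisher's exact test). With 2000 bp, TGATAA was 0.227 and summit distance 14.4 (p = 0.00023, Fisher's exact test). With sites ending in A only, single-site position was −11.5 (p = 0.0354, exact binomial test), TGATAA 6.51 (p = 0.0264, Fisher's exact test), chromosome X −1.40 and chromosome V 9.23 (adjusted p = 0.0735, Fisher's exact test). In the stronger 50% of the IDR list replicate 2 overlap was 0.480, with 2 sequences called. Without ribosomal protein promoters replicate 2 overlap was 0.289 and chromosome X −0.340. Replicate 2 overlap was 1.06 under both stricter overlap rules, and TGATAA 1.59 with background windows 300 bp upstream. The second-site and shared-promoter calls held under every alternative other than replicate 2's peaks, including the A+T range and the 500 bp restriction, which were added after seeing the data. No paired analysis was possible because there is 1 group. The unknown depth limits how far the low overlap with replicate 2 can be read.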
